A study of Mus musculus with 18 samples.

Results

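SB1 is a cultured mouse cell line whose genotype label is that of YAP-S CCA tumors, and its RNA was set beside that of those tumors to see which tumor RNA the line still holds. The members are 6 of the 18 samples in the series: 3 samples of SB1 cells, numbered 1 to 3, and the 3 tumors numbered 3, 4 and 5. The tumors are liver nodules raised in mice with myr-AKT, a membrane-bound active form of the kinase AKT, together with YAPS127A, a form of YAP that Hippo signalling cannot hold out of the nucleus. They are labelled as cholangiocarcinoma (CCA), cancer with bile duct features. Strain, age, the cell type that took up the transgenes and the animal from which SB1 was derived are not given in the labels, nor is it stated that SB1 samples 1 to 3 were separate cultures. Poly(A) RNA was sequenced in both groups, and values are CPM, counts scaled to equal library totals, over 22032 protein-coding genes found in both deposited tables, out of 43346 shared genes of any kind.

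YAP is a transcriptional partner of the TEAD proteins. In the liver it drives growth and bile duct features, and the Hippo kinases restrain it. Hepatocytes make most plasma proteins and carry out detoxification, urea synthesis and bile acid synthesis. Bile duct cells, by contrast, are marked by keratins, SOX9 and osteopontin. A tumor nodule also holds vessels, fibroblasts, immune cells and neighbouring liver, while a culture of an established line holds mainly the line itself.

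The tumor libraries held 84515613, 75093769 and 32999594 counts, and the SB1 libraries held 30541185, 25341968 and 26281442. The tumor values had been corrected by the authors in a way not stated, and the SB1 values were raw counts, so cell line and table cannot be told apart and no test was run. Only large differences are called lower or higher, and smaller ones are given as values. Over the 11087 genes with 10 CPM in either group, log2 CPM correlated by 0.980 to 0.983 between tumors and by 0.988 to 0.994 between SB1 samples. Between a tumor and an SB1 sample it correlated by 0.207 to 0.247, and ranks did by 0.470 to 0.517. Genes high in only 1 of the groups enter this set, which lowers the values between groups. These are correlations across genes, which are not independent. SB1 sample 3 correlated by 0.988 and 0.989 with the other SB1 samples, which correlated by 0.994 with each other, and it also stood apart in the interferon genes described below. The CCA label was checked against markers. Of 20 bile duct markers 16 had at least 10 CPM in the tumors, with Spp1 far above Krt19 and Epcam. But albumin (Alb), a hepatocyte product, was the most abundant tumor transcript at 4.45 to 4.54% of all counts.

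A gene was called lower in SB1 cells when it had at least 10 CPM in the tumors, differed by at least 10-fold and had no overlap between the groups. By that rule 1159 of 10015 genes were lower, which is 11.6%. The same rule in the other direction called 261 of 9524 genes higher, which is 2.74%. A gene was called kept when both groups had at least 10 CPM and differed by less than 4-fold. Of the 10015 tumor genes 7646 were kept, which is 76.3%, so a list whose kept share lies near that value resembles the genes at large. The median gene with 10 CPM in either group was higher in SB1 cells by 0.54 on the log2 scale, and differences are best read against that shift. It was 0.11 after TMM scaling and -0.45 when a list of ubiquitous genes was set equal in all libraries.

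**Figure D1:**
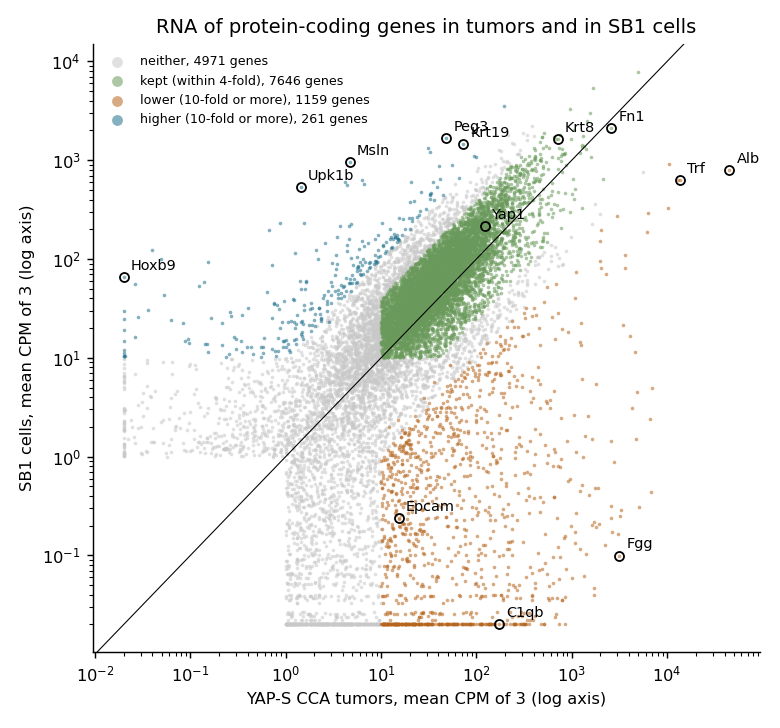
Mean CPM of each gene in the 3 tumors (horizontal, log axis) and the 3 SB1 samples (vertical, log axis), 1 point per gene with at least 1 CPM in either group; means under 0.02 CPM are drawn at 0.02 and the line marks equal CPM. The 1159 lower genes spread far below the line, while the 7646 kept genes lie along it.

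The genes called lower held 38.0, 39.1 and 35.1% of the counts of tumors 3, 4 and 5. They held 0.713, 0.650 and 0.728% of the counts of SB1 samples 1, 2 and 3. Kept genes held 52.2, 51.1 and 54.7% of tumor counts and 79.3, 79.5 and 79.3% of SB1 counts. Genes called higher held 0.215, 0.217 and 0.236% of tumor counts and 3.96, 4.04 and 4.33% of SB1 counts. The lower and higher classes were called from these same libraries, so the direction of their shares follows from the calling rule. The shares only describe how much RNA the called genes held. Lower genes were frequent among the most abundant tumor transcripts. Of the 100 most abundant tumor genes 71 were lower in SB1 cells and 23 were kept, while of the top 1000 genes 300 were lower and 594 were kept.

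**Figure D2:**
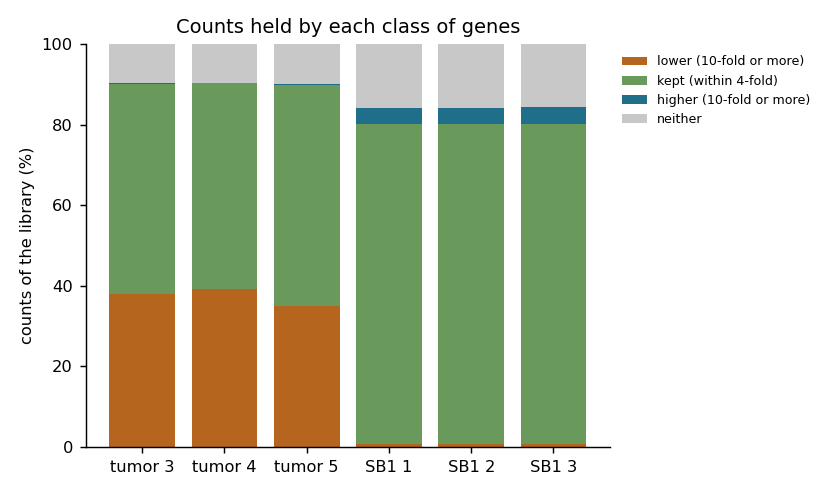
Percent of each library's counts (vertical) held by genes called lower, kept, higher or neither, in tumors 3 to 5 and SB1 samples 1 to 3. Lower genes take 35.1 to 39.1% of the tumor libraries and under 1% of the SB1 libraries, a direction set by the call, which used these same libraries.

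Hepatocyte transcripts made up the lower genes with the widest gaps. All 20 plasma protein genes of a fixed list were lower, with a median log2 difference of -9.75 against 0.54 over all genes. Their summed level was 101975 to 111496 CPM in the tumors and 1514 to 2015 CPM in SB1 cells. In bulk samples, fewer cells of a type and less RNA per cell cannot be told apart. How much of this tumor RNA came from liver around the nodules was not tested.

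Alb, the main plasma protein, measured 45397, 44917 and 44480 CPM in tumors 3, 4 and 5. In SB1 samples 1, 2 and 3 it measured 1133, 623 and 624 CPM, a 59.0-fold lower level with no overlap. Fga and Fgb, which encode 2 chains of the clotting protein fibrinogen, did not move alike. Fga measured 5111, 5798 and 4223 CPM in the tumors and 0.533, 0.361 and 0.0387 CPM in SB1 cells. Fgb measured 3534, 4290 and 3024 CPM in the tumors and 95.1, 78.7 and 67.4 CPM in SB1 cells. The third chain, Fgg, resembled Fga, with 2636 to 3661 CPM in the tumors and 0.0775 to 0.120 CPM in SB1 cells, where it had 8 counts in all. The 3 genes are neighbours on chromosome 3 of mm10, from 83007724 for Fgg to 83049863 for Fgb.

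The plasma protein RNA left in SB1 cells was not in 1 ratio to the tumors. Relative to the tumor mean, the SB1 mean was 5.32% for Fetub, 4.59% for Trf (transferrin), 3.09% for Hp (haptoglobin), 2.22% for Fgb and 1.77% for Alb. It was 0.0943% for Apob, 0.00617% for Fga, 0.00575% for Vtn (vitronectin) and 0.00316% for Fgg. Trf overlaps a predicted read-through gene on chromosome 9, so its reads may be shared.

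The enzymes of hepatocyte metabolism were lower nearly throughout. All 15 cytochrome P450 genes, which oxidise drugs, fatty acids and sterols, were lower, with a median log2 difference of -11.01, and 14 were so without tumor 4 or without SB1 sample 2. Cyp2e1 measured 3240, 3848 and 2509 CPM in the tumors and 0.267, 0.321 and 0.155 CPM in SB1 cells. Cyp7a1, the rate-limiting enzyme of bile acid synthesis, was at 77.1 ± 25.3 CPM in the tumors (SD, n = 3) and 0.0268 ± 0.0464 CPM in SB1 cells (SD, n = 3). In the urea cycle and amino acid list 12 of 14 genes were lower, among them Cps1, the entry enzyme of the urea cycle, at 2562 ± 417 against 0.242 ± 0.175 CPM (SD, n = 3 each). The exceptions were Asl and Glul, at 38.0 and 103 CPM in SB1 cells, 2.51 and 2.81 below the tumors on the log2 scale. Both were called lower when ubiquitous genes were set equal.

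Bile acid synthesis and transport genes were lower in 9 of 10 cases, with Hsd3b7 as the exception at 457 ± 97.8 against 65.6 ± 1.49 CPM, which was also called lower when ubiquitous genes were set equal. Of 22 complement and coagulation genes 21 were lower. C3, the central complement protein, kept 327 ± 76.2 CPM in SB1 cells but had 10183 ± 1276 CPM in the tumors. F7, F9, F10, F11 and C8b had no count in any SB1 library. The single kept member was Masp1, a protease that starts complement activation, at 90.0 ± 10.8 and 59.1 ± 1.71 CPM.

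Fatty acid oxidation was divided. Of 15 genes 5 were lower and 6 were kept, or 3 kept when ubiquitous genes were set equal, where Hadha was no longer kept. The lower genes included Fabp1, the liver fatty acid carrier, at 1787 ± 320 against 0.196 ± 0.136 CPM. The kept genes act in the import of fatty acids into mitochondria and in their oxidation there. Among them Hadha was at 348 ± 16.6 and 165 ± 1.89 CPM, and Acadl at 148 ± 6.39 and 162 ± 10.3 CPM.

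Isozymes of sugar metabolism differed by tissue form. All 10 genes of the gluconeogenesis and liver isozyme list were lower in SB1 cells, whereas 11 of 16 glycolysis genes were kept, not above the share over all genes, and 2 were higher. Aldoa, a widely expressed glycolytic enzyme, was at 353 ± 70.8 and 1094 ± 190 CPM and counted as kept. Pklr, the liver pyruvate kinase, measured 210, 134 and 247 CPM in the tumors and 11.3, 12.2 and 18.7 CPM in SB1 cells. Pkm, the form of most other tissues, measured 227, 164 and 197 CPM in the tumors and 3051, 3766 and 3765 CPM in SB1 cells, and was called higher. Hk2, a hexokinase of muscle and tumors, was at 14.8 ± 0.971 against 176 ± 51.2 CPM. The call of Hk2 was lost without SB1 sample 3 and under each of 4 other scalings, and that of Pkm under 1 of them, the one that sets ubiquitous genes equal.

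Transcription factors of hepatocytes were lower in 11 of 15 cases, with a median log2 difference of -6.22. Cebpa, a factor of mature hepatocytes, measured 129, 99.7 and 135 CPM in the tumors and 2.87, 3.53 and 2.63 CPM in SB1 cells. Nr1i3, the xenobiotic receptor CAR, was at 115 ± 38.2 against 0.0111 ± 0.0193 CPM. Some factors stayed measurable. Hnf4a, a master regulator of hepatocyte genes, measured 401, 459 and 373 CPM in the tumors and 58.3, 55.3 and 53.8 CPM in SB1 cells, a 7.35-fold lower level that misses the 10-fold limit. It was called lower under DESeq2 size factors and when ubiquitous genes were set equal. Foxa2, a factor that opens liver enhancers, was kept, at 19.9 ± 5.36 and 57.3 ± 6.09 CPM.

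Bile duct markers were divided. Of 20 markers 10 were kept, 4 were lower and 1 was higher, and the median log2 difference was -0.18. Of the 16 with 10 CPM in the tumors, the 10 kept and 4 lower markers are a smaller kept share and a larger lower share than the 76.3 and 11.6% over all genes. The simple epithelial keratins Krt8 and Krt18 were kept. Krt8 measured 856, 497 and 774 CPM in the tumors and 1421, 1610 and 1832 CPM in SB1 cells. Sox9, a factor of bile duct and progenitor cells, measured 72.1, 56.6 and 80.0 CPM in the tumors and 41.3, 33.7 and 43.8 CPM in SB1 cells. Krt19, the keratin most used to mark bile duct cells, was the higher gene. It measured 67.3, 103 and 47.0 CPM in the tumors and 1120, 1421 and 1821 CPM in SB1 cells, 20.8-fold higher with no overlap.

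The 4 lower bile duct markers were Epcam, Spp1, Prom1 and St14. Epcam, an adhesion protein of most epithelia, measured 16.9, 10.3 and 18.9 CPM in the tumors and 0.2001, 0.402 and 0.116 CPM in SB1 cells. Spp1, which encodes the secreted protein osteopontin, measured 9450, 8114 and 13785 CPM in the tumors and 1092, 883 and 788 CPM in SB1 cells. It stayed abundant there although it was 11.2-fold lower, and its lower call was lost without tumor 5. St14, a membrane protease of epithelia, was at 14.9 ± 3.81 and 0.0333 ± 0.0578 CPM.

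Of 20 junction genes 14 had 10 CPM in the tumors, of which 10 were kept and 2 were lower, close to the shares over all genes. Cdh1, which encodes the adhesion protein E-cadherin, measured 219, 237 and 271 CPM in the tumors and 202, 210 and 256 CPM in SB1 cells, so the groups overlapped. Tjp1, Cgn and F11r, of the tight junction plaque and membrane, were kept as well. The tight junction proteins Cldn3 and Ocln were the lower genes. Cldn3 was at 36.7 ± 7.88 against 0.239 ± 0.0716 CPM and Ocln at 27.1 ± 4.20 against 0.289 ± 0.153 CPM.

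**Figure D3:**
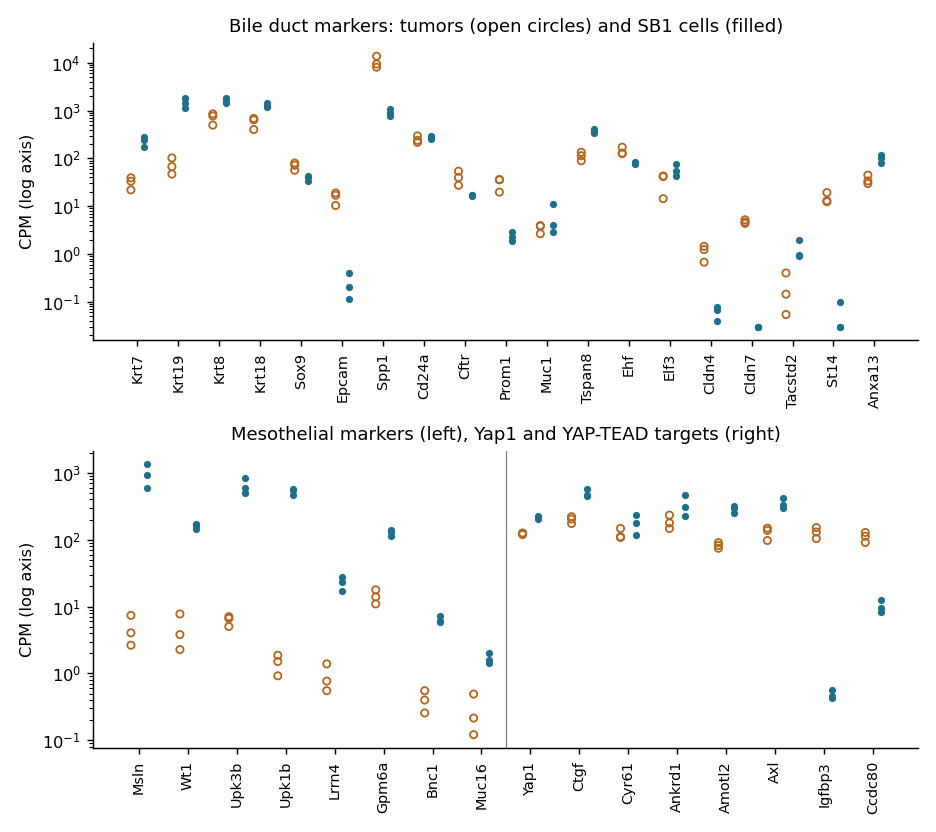
CPM (log axis) of each tumor (open circles) and each SB1 sample (filled circles) for 19 bile duct markers (top), and for 8 mesothelial markers, Yap1 and 7 YAP-TEAD targets (bottom); values under 0.03 CPM are drawn at 0.03. Epcam, St14 and Igfbp3 separate downward, Krt19 and the mesothelial markers separate upward, and Cyr61 and Ankrd1 overlap.

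Transcripts of the YAP pathway were measured in both groups. Yap1 measured 125, 125 and 119 CPM in the tumors and 224, 220 and 206 CPM in SB1 cells. Akt1 measured 883, 559 and 1094 CPM in the tumors and 438, 499 and 455 CPM in SB1 cells. Whether reads of the 2 transgenes were counted with these genes is not given in the sources used here. Of 20 Hippo pathway genes 19 had 10 CPM in the tumors, of which 17 were kept, against 76.3% of all genes. None was lower or higher, and the median log2 difference was 1.16. Tead1, the main TEAD partner in many cells, was at 106 ± 15.8 and 281 ± 13.8 CPM. Lats1, a kinase that inhibits YAP, was at 54.6 ± 1.43 and 121 ± 0.942 CPM. Tead4 lay outside the kept range, at 7.15 ± 3.22 and 49.6 ± 4.75 CPM.

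Of 22 YAP-TEAD targets 20 had 10 CPM in the tumors, of which 13 were kept and 2 were lower. The kept share was below the 76.3% of all genes, and the lower share was near the 11.6%. None was called higher, and the median log2 difference of the list was 1.15. The largest log2 rise in the list was 6.88, in a gene under the 10 CPM in SB1 cells that a higher call needs. Ctgf, which encodes a growth factor of the matrix and is often used to read YAP activity, measured 221, 204 and 175 CPM in the tumors and 474, 453 and 571 CPM in SB1 cells. Cyr61, its relative, measured 148, 108 and 111 CPM in the tumors and 119, 176 and 234 CPM in SB1 cells. Ankrd1, a nuclear cofactor, measured 233, 147 and 178 CPM in the tumors and 225, 312 and 461 CPM in SB1 cells. Ctgf did not overlap between the groups, and Cyr61 and Ankrd1 did. Igfbp3, which binds insulin-like growth factors, was lower, at 152, 104 and 130 CPM in the tumors and 0.433, 0.562 and 0.465 CPM in SB1 cells. Ccdc80, a matrix protein, was the other lower target, at 111 ± 18.8 and 10.1 ± 2.18 CPM.

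Promoters of 2 kept targets are shown because they hold GGAATG, the core motif of TEAD proteins, searched on both strands. Ankrd1 is on the minus strand at chr19:36119845-36120094 with matches that start 210 and 123 bases before the gene. Cyr61 is on the minus strand at chr3:145649986-145650235 with a match 103 bases before the gene, which lies on the opposite strand and so reads CATTCC. Each run is the 250 bases before the RefSeq start on GRCm38.p6, 5′ to 3′, with the matches in capitals.
Ankrd1: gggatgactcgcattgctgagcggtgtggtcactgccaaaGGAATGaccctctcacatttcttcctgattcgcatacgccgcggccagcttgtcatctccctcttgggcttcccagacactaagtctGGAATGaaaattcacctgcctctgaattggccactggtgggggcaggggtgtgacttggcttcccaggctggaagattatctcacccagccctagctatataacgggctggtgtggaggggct
Cyr61: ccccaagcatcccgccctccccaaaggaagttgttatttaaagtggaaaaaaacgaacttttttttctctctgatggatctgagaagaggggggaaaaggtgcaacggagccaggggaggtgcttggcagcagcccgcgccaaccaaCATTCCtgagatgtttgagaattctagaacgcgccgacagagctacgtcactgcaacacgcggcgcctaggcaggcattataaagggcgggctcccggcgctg

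GGAATG stood in 14.4% of all 27025 genes with a promoter entry. It stood in 13.2% of the 16833 shared protein-coding genes with one and in 12.3% of the 6177 kept genes with one. For the YAP-TEAD targets the share is void, since 15 of 22 had an entry, and over all lower genes it is void too, since 878 of 1159, under 80%, had one. A match describes the sequence and says nothing of binding.

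Growth signalling lists differed in how much was kept. In the AKT and PI3K list 17 of 18 genes were kept, a larger share than the 76.3% of all genes. Igf1r, the receptor of insulin-like growth factors, was higher, at 4.92 ± 0.821 and 69.3 ± 6.75 CPM. Its call was lost when ubiquitous genes were set equal. Among 20 growth factor receptors and ligands 17 had 10 CPM in the tumors. Of those 10 were kept and 3 were lower (Erbb3, Fgfr4 and Igf1). That is a smaller kept share and a larger lower share than the 76.3 and 11.6% over all genes. Igf2 was higher, at 0.751 ± 0.283 and 36.2 ± 5.61 CPM. Met, the receptor of hepatocyte growth factor, was kept at 94.8 ± 9.22 and 351 ± 51.0 CPM. Of 12 listed genes for tyrosine kinases and a phosphatase 10 had 10 CPM in the tumors, and whether each acts on YAP was not tested. Of those 8 were kept, near the share over all genes, among them Src and Yes1. The 2 lower genes included Fgr, a kinase of blood cells.

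Of 13 Notch genes 9 had 10 CPM in the tumors, of which 4 were kept and 3 were lower. That is a smaller kept share and a larger lower share than the 76.3 and 11.6% over all genes. The kept genes were Notch2, Jag1, Hes1 and Rbpj. The 3 lower genes, Notch4, Dll4 and Heyl, are known from vessels and their mural cells, and 5 were lower when ubiquitous genes were set equal. Cholesterol and fatty acid synthesis genes were kept in 16 of 20 cases, near the 76.3% of all genes, or in 13 when ubiquitous genes were set equal. Scd1, the main desaturase of liver, measured 8756, 4708 and 5575 CPM in the tumors and 270, 284 and 321 CPM in SB1 cells, while its relative Scd2 was kept, at 491 ± 100 and 1714 ± 24.6 CPM.

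Markers of leukocytes, macrophages, class II cells, vessels and fibroblasts were lower in most of each list. All 12 pan-leukocyte genes were lower, with a summed level of 327 to 555 CPM in the tumors and 3.74 to 10.6 CPM in SB1 cells. Leaving out tumor 4, tumor 5, SB1 sample 1 or SB1 sample 2 left 11 of the 12 calls. Of 18 macrophage and Kupffer cell genes 12 were lower and 9 had no SB1 count at all. C1qb, a complement subunit made by macrophages, measured 141, 177 and 199 CPM in the tumors and 0 in each SB1 library, at least 1526-fold lower. Of 12 class II and dendritic cell genes 8 were lower, and the sum of the list ran from 1217 to 3063 CPM in the tumors and from 1.5 to 9.64 CPM in SB1 cells. None of the 18 T and NK cell genes reached 10 CPM in the tumors, and 9 of them had no SB1 count. None of 10 B and plasma cell genes was lower either, and only 1 of 12 neutrophil genes and 1 of 10 erythroid and platelet genes was, the same number as reached 10 CPM in the tumors.

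Of 18 endothelial markers 14 were lower, including Pecam1 and Cdh5. The 3 kept members were Esam, Ptprb and Flt4. Flt4, a receptor of vessel growth factors, measured 53.7, 51.8 and 54.6 CPM in the tumors and 124, 121 and 170 CPM in SB1 cells. The macrophage list likewise had 2 kept members, Csf1r and Cd14, of which Csf1r was not kept under DESeq2 size factors or when ubiquitous genes were set equal. Csf1r, the receptor of a macrophage growth factor, measured 118, 165 and 194 CPM in the tumors and 62.5, 36.7 and 67.3 CPM in SB1 cells, where Ptprc, the pan-leukocyte marker CD45, was at 0.0387 ± 0.0671 CPM.

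Of 22 fibroblast and stellate cell genes 13 were lower and 5 were kept. Col1a2, a chain of type I collagen, measured 643, 421 and 574 CPM in the tumors and 2.70, 2.57 and 5.07 CPM in SB1 cells. Its partner chain Col1a1 was kept, at 350 ± 100 and 119 ± 20.9 CPM, a call that was lost under DESeq2 size factors and when ubiquitous genes were set equal. Lum, a matrix proteoglycan, measured 79.1, 98.2 and 80.5 CPM in the tumors and 0 in each SB1 library, at least 764-fold lower. Dcn, another matrix proteoglycan, measured 236, 274 and 231 CPM in the tumors and 195, 223 and 329 CPM in SB1 cells, so the groups overlapped. Lrat and Reln, markers of liver stellate cells, were at 0 and 0.0240 CPM in SB1 cells. Integrins and laminins were kept in 11 of 16 cases, near the share over all genes, with Lama3 as the lower gene, a call that was lost without tumor 4.

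Of 15 genes of mesenchymal transition 10 had 10 CPM in the tumors, of which 7 were kept, near the 76.3% of all genes. Fn1, which encodes the matrix protein fibronectin, measured 2601, 2461 and 2754 CPM in the tumors and 2197, 1688 and 2490 CPM in SB1 cells, with overlap. Vim, a filament protein of mesenchymal and cultured cells, was at 397 ± 30.9 and 1742 ± 25.1 CPM. Tgfbi was lower and Twist2 higher, though the call of Twist2 was lost when ubiquitous genes were set equal.

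**Figure D4:**
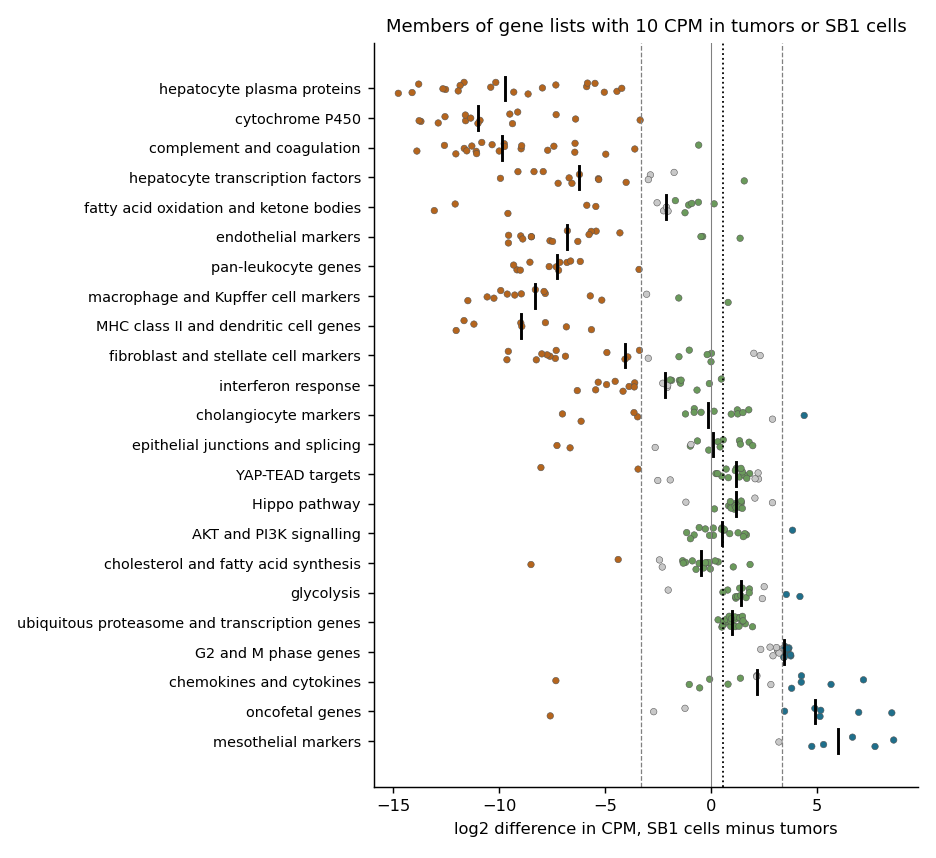
Log2 difference in CPM, SB1 cells minus tumors (horizontal), of each member with at least 10 CPM in either group of 23 gene lists (rows). Orange points are lower, green kept, blue higher and grey neither; short bars are medians of the points drawn, dashed lines mark 10-fold and the dotted line the median of all genes at 0.54.

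Antigen presentation and interferon genes were divided. Of 12 class I presentation genes 4 were lower and 3 were kept, and 8 were lower when ubiquitous genes were set equal. B2m, the shared light chain of class I molecules, was at 2006 ± 512 and 197 ± 60.8 CPM, and Nlrc5, the class I activator, at 78.7 ± 32.4 and 0.637 ± 0.592 CPM. Of 20 interferon response genes 9 were lower and 8 were kept, or 3 kept under that scaling. In tumor 4 the list was also high: 15 of the 20 were the highest of the 3 tumors there, against 21.0% of genes with 10 CPM in SB1 cells, and the sums were 1205, 1992 and 1688 CPM in tumors 3, 4 and 5. In SB1 sample 3 all 20 were the highest of the SB1 samples, where 37.4% of genes with 10 CPM were highest in that sample. The list summed to 404, 416 and 832 CPM in SB1 samples 1, 2 and 3. Irf7, an interferon-induced factor, measured 71.7, 84.7 and 66.7 CPM in the tumors and 0.734, 0.964 and 19.6 CPM in SB1 cells. Without SB1 sample 3 the list still had 9 lower genes, and without SB1 sample 1 it had 6. The class I list had 4 lower genes without SB1 sample 3. The lower call of B2m was lost without tumor 4, tumor 5, SB1 sample 1 or SB1 sample 2.

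Mesothelial markers were the list with the widest gap upward. Mesothelium is the sheet of cells that lines the body cavities and covers the liver. Of 8 markers 6 had 10 CPM in SB1 cells, of which 5 were higher, against 2.74% of all genes. The median log2 difference of the list was 5.01 against 0.54 over all genes. None was lower or kept, but only 1 of the 8 had the 10 CPM in the tumors that those calls need. The sum of the 8 was 24.8 to 39.1 CPM in the tumors and 1850 to 3102 CPM in SB1 cells. Msln, the surface protein mesothelin, measured 7.39, 4.05 and 2.64 CPM in the tumors and 917, 593 and 1350 CPM in SB1 cells. Upk3b, a membrane protein of mesothelium and bladder, measured 6.66, 7.05 and 5.04 CPM in the tumors and 591, 496 and 824 CPM in SB1 cells. Wt1, a factor of mesothelium and kidney, measured 2.28, 7.76 and 3.81 CPM in the tumors and 146, 158 and 174 CPM in SB1 cells. Upk1b and Lrrn4 were the other called genes, and all 5 calls held under each of 4 other scalings. In the other 9 tumors of the same table Msln reached at most 6.21 CPM, Upk3b at most 6.47 and Wt1 at most 2.79.

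Cell division genes lay near the 10-fold limit and their calls depended on the scaling. Of 20 G2 and M phase genes 12 were called higher, with a median log2 difference of 3.42, but none was called under any of 4 other scalings. Those scalings gave medians from 2.44 to 3.0. Top2a, an enzyme that untangles DNA before division, measured 86.3, 80.5 and 115 CPM in the tumors and 1244, 1086 and 965 CPM in SB1 cells. Mki67, the proliferation marker Ki-67, measured 118, 123 and 154 CPM in the tumors and 760, 630 and 590 CPM in SB1 cells, a 5.01-fold difference that was not called. Of 19 S phase genes 1, Cdc6, was called higher, a call that was lost under the same scalings. Cdkn2a, which encodes 2 inhibitors of growth, measured 2.40, 1.77 and 2.37 CPM in the tumors and 79.8, 97.6 and 121 CPM in SB1 cells. It was 1 of 20 cell cycle inhibitors and p53 targets to be higher, beside 10 kept and 2 lower (Trp53inp1 and Eda2r), or 4 lower when ubiquitous genes were set equal. Of the 20 genes 17 had 10 CPM in the tumors. The lower share was thus near the 11.6% of all genes, and the kept share was below the 76.3%.

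Of 12 oncofetal genes, which are active before birth and in some tumors, 6 were higher and 1, Gpc3, was lower. The 6 were all of those with 10 CPM in SB1 cells, where 2.74% of all genes were higher. Hmga2, a chromatin protein, measured 0.910, 0.513 and 0.737 CPM in the tumors and 89.5, 89.3 and 80.7 CPM in SB1 cells. Peg3, an imprinted gene, measured 44.8, 33.8 and 65.7 CPM in the tumors and 1868, 1454 and 1657 CPM in SB1 cells. Lin28b, which blocks maturation of let-7 microRNAs, had no count in the tumors and 19.0 ± 4.19 CPM in SB1 cells, at least 364-fold higher. Afp, the fetal albumin relative, ranged from 2.08 to 33.1 CPM in the tumors and from 0.426 to 1.83 CPM in SB1 cells. The higher call of Hmga1 was lost under the 4 other scalings.

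Of 20 chemokines and cytokines 5 were higher, 5 were kept and Il1b was lower. The higher genes were among 13 with 10 CPM in SB1 cells, a larger share than the 2.74% of all genes. Cxcl5, a neutrophil attractant, measured 4.53, 4.07 and 3.96 CPM in the tumors and 570, 666 and 577 CPM in SB1 cells. Ccl20, an attractant of lymphocytes and dendritic cells, was at 4.89 ± 3.11 and 227 ± 88.7 CPM. Cxcl1, Ccl2 and Il33 were higher as well, but their calls were lost when ubiquitous genes were set equal, and that of Ccl2 also under DESeq2 size factors.

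The Hox genes were examined as a family after their values were seen. They lie in 4 clusters and set position along the body axis in the embryo. Of 39 genes 25 had at least 1 CPM in SB1 cells and 3 had so in the tumors. The share of all genes with 1 CPM was not counted, so these numbers have no base to be read against. By the rule that needs 10 CPM, 6 of the 39 were called higher, and that rule called 2.74% of all genes with 10 CPM in SB1 cells. Their sum was 9.28 to 10.3 CPM in the tumors and 228 to 245 CPM in SB1 cells. Hoxb9 had no count in the 3 tumors and measured 63.1, 68.8 and 65.7 CPM in SB1 cells, at least 1286-fold higher. Hoxa10 likewise had no tumor count and 14.9 ± 0.613 CPM in SB1 cells, at least 291-fold higher. Hoxb4 differed little, at 2.12 and 2.61 CPM. The clusters were unequal: 10 of 11 genes of cluster a, on chromosome 6, and 8 of 10 of cluster b, on chromosome 11, had 1 CPM in SB1 cells, against none of 9 in cluster d, on chromosome 2. In cluster c, on chromosome 15, 7 of 9 had 1 CPM in SB1 cells, and 7 of the 9 had no tumor count.

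**Figure D5:**
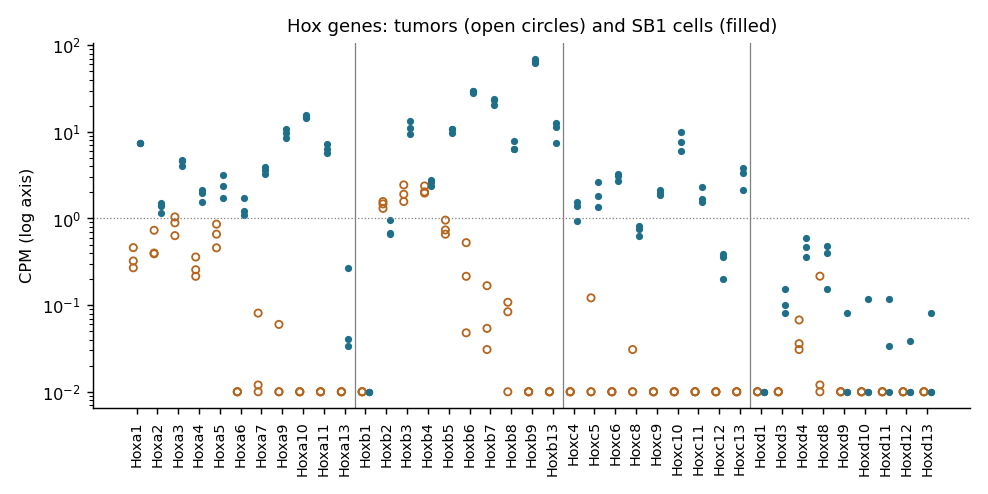
CPM (log axis) of 39 Hox genes in each tumor (open circles) and each SB1 sample (filled circles), grouped by cluster a to d from left to right; values under 0.01 CPM are drawn at 0.01 and the dotted line marks 1 CPM. Genes of clusters a, b and c exceed 1 CPM in SB1 cells in 25 cases, while those of cluster d do not.

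Other genes with the largest gaps upward, by the fixed rule, included Aldh3a1, Vsig1, Pax3, Wnt10a and Ptgs2. Aldh3a1, an aldehyde dehydrogenase of cornea and stomach, measured 0.0120, 0.0135 and 0.0922 CPM in the tumors and 76.7, 167 and 124 CPM in SB1 cells. Pax3, a factor of muscle and neural crest, measured 0.0479, 0 and 0.0307 CPM in the tumors and 56.4, 58.3 and 53.3 CPM in SB1 cells, and it had no count in the other 9 tumors. Wnt10a, a secreted Wnt ligand, was at 0.153 ± 0.0849 and 93.2 ± 13.5 CPM. Ptgs2, the inducible prostaglandin synthase COX-2, measured 1.47, 0.270 and 0.860 CPM in the tumors and 138, 275 and 274 CPM in SB1 cells. Psca varied among SB1 samples, at 32.0, 11.97 and 84.8 CPM, against 0 to 0.0958 CPM in the tumors.

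The kept genes of highest SB1 level were mostly those of basic cell functions. Eef1a1 and Eef2, elongation factors of protein synthesis, were at 5004 and 1571 CPM in the tumors and 7879 and 3020 CPM in SB1 cells. Hsp90ab1, a chaperone, was at 1666 and 5420 CPM. Of 24 ubiquitous proteasome and transcription genes all 24 were kept, with a median log2 difference of 0.98, which lies above the shift of all genes.

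Near the 10-fold limit, Lamc3 and Thbs2 lay just inside the lower group, at 10.08- and 10.09-fold, and Eln and Nat6 just outside, at 9.92- and 9.93-fold. Ccnd2 and Dut lay just inside the higher group, at 10.03- and 10.07-fold, and Incenp and Brca1 just outside, both at 9.96-fold. Ranked within each library instead, with a change of 25 percentile points and no overlap, 1087 genes were lower and 372 higher. Of these, 936 and 205 were also called by CPM.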

How the data were processed

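RNA of tumor nodules and of SB1 cells was extracted with a miRNeasy kit and made into TruSeq mRNA libraries, per the labels' protocols. The authors aligned reads with STAR to mm10, per the submitters' processing notes; versions and the counting tool are not given in the sources used here. They deposited gene counts in 2 tables. SB1 values are raw counts. Tumor values are counts that the authors had corrected before deposit, and what was corrected is not given. In the tumors, unlike SB1 cells, fewer genes had a count of 2 than of 3. A further 3 columns of the cell line table matched no sample label and were not used here, and SY1 cells were not analysed here.

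Genes were joined by identifier after 27 symbols turned into dates had been restored. CPM used the total over shared protein-coding genes. Counts under 3 were set to 3 for log2 differences, so a fold against 0 is a lower bound. Calls needed 10-fold, no overlap and 10 CPM, and kept genes were within 4-fold. Percentile ranks, TMM (edgeR 4.0.16), DESeq2 1.42.0 size factors and other settings were tried as alternatives. The method was tested on simulated data. No test compares the 2 tables. Depth limits a library to changes above 3 counts, which covers counting error only.

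The rule named the 15 called genes with the largest difference each way, the 15 kept genes highest in SB1 cells, Yap1, Akt1 and members of 44 fixed lists, of which only some are printed; a few are not reported here. Members and lists were chosen with earlier results of these data known, and the Hox family was added after its values were seen. Near-identical genes (Serpina1, Mug and Mup families) may share reads. Promoters are from RefSeq on GRCm38.p6.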

Additional observations from a re-analysis of the deposited data

How the results depend on the processing

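No paired analysis was possible because no test was run and the groups share only the number 3, which names a sample. Main values were 1159 lower, 261 higher and 7646 kept genes, with 37.4 ± 2.07% of tumor counts in lower genes (SD, n = 3). Higher genes numbered 159 with TMM factors, 148 with DESeq2 size factors, 169 with the 100 most abundant tumor genes left out of the totals and 94 with the ubiquitous list set equal, where lower genes held 41.3% of tumor counts. A minimum of 1 CPM gave 1943 lower and 448 higher genes, no minimum gave 1943, 485 and 17469 kept, and a minimum of 50 CPM gave 584, 141 and 2669. A 30-fold limit gave 84 higher genes and a share of 29.6%, a 4-fold limit 1053 and 42.7%, and percentile ranks a share of 25.9%. Leaving out each sample in turn gave 1129 to 1190 lower, 253 to 291 higher and 7535 to 7705 kept genes and a share of 36.3 to 37.7%. Thinning, a floor of 10 counts and all biotypes moved no count by over 1.5 times. That floor lies well under 10 CPM, so it could hardly change a call. Over 44 list medians and 13 settings no median past 10-fold changed sign, while 12 medians nearer to 0 did under some setting. Across scalings the median gene moved only between 0.54 and -0.45 on the log2 scale, too little to turn a 10-fold difference. Genes called without overlap also keep their sign when a sample is left out. The sign past 10-fold was therefore nearly fixed in advance and adds no support. Of 159 named genes none past 10-fold changed sign, and 16 nearer to 0 did, Yap1 among them, under the scaling that sets the ubiquitous list equal or another setting. The closest calls depend on scaling, and the 2 tables differ in processing. Differences under 10-fold are therefore given as values and not called lower or higher.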

Other observations

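The following genes were chosen after their values were seen and belong to no list. Of the 261 genes called higher, 41 were in a list, and of the 1159 called lower, 203 were. Among the rest, 4 class 3 semaphorins, secreted guidance proteins, were higher in SB1 cells. Sema3c measured 16.8, 25.2 and 19.6 CPM in the tumors and 575, 567 and 680 CPM in SB1 cells. Sema3e was at 0.661 ± 0.0946 and 196 ± 25.3 CPM, and Sema3a and Sema3d were the others. The call of Sema3d was lost under each of 4 other scalings and without tumor 5 or SB1 sample 1. Sema3b and Sema3f were not called, at 8.33 and 32.4 CPM in the tumors and 16.3 and 80.9 CPM in SB1 cells, and Sema3g was at 10.9 and 1.59 CPM.

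Ptgs1, the prostaglandin synthase beside Ptgs2, measured 22.6, 23.5 and 25.2 CPM in the tumors and 229, 217 and 356 CPM in SB1 cells. It was called higher, but not under any of 4 other scalings or without SB1 sample 3. Cyp1b1, a P450 enzyme outside the hepatocyte list, was at 32.3 ± 1.17 and 1204 ± 99.1 CPM, in contrast to the 15 listed P450 genes, which were lower. S100a6 was at 30.9 ± 3.27 and 1315 ± 104 CPM and Lrp2, an endocytic receptor, at 1.55 ± 0.0879 and 233 ± 44.1 CPM. Pax8, Eya1, Eya4, Six4, Tbx15 and Zic2, transcription factors of the embryo, were higher too, and Zic2 had no tumor count against 11.9 ± 0.494 CPM in SB1 cells. When ubiquitous genes were set equal the calls of Eya1, Six4, Tbx15 and Zic2 were lost. Those of Eya1 and Tbx15 were also lost under TMM and DESeq2 scaling, and without SB1 sample 1 for Eya1 and SB1 sample 2 for Tbx15. Apoe was at 6869 ± 754 and 4.96 ± 1.41 CPM.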
